A study of Homo sapiens with 2 samples.

Results

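The replication licensing and fork machinery described here comprises 47 genes whose products mark replication origins, load and activate the replicative helicase, and copy both strands at the fork. The members were named by symbol, without a threshold on their values, and matched by Entrez identifier to 47 of the 27685 genes in the files. Every member was among the 14450 genes with at least 1 TPM in either library, the genes described below. TPM, the unit of StringTie for transcript abundance, is a gene's share of all transcripts after division by transcript length. Levels can therefore be compared between genes, and a larger share for some genes lowers that of the others.

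The cells were PLC/PRF/5, an established human hepatocellular carcinoma line. One sample was given the solvent DMSO and the other 6 µM JIB-04, an inhibitor of Jumonji-family histone lysine demethylases, for 24 h in each case. The study sequenced RNA to see which pathways responded to JIB-04 in liver cancer cells. There was 1 stranded mRNA library per condition from a single cell line, so differences could not be checked against replicates and are given without tests. The treatment field of the control sample reads untreated, while its title names DMSO, which was followed here.

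In a dividing cell the origin recognition complex (ORC) binds origins and, with CDC6 and CDT1, loads the MCM2-7 helicase on DNA in G1 phase, which licenses the origin for the next S phase. The kinase CDC7 with its activator DBF4, together with MCM10, CDC45 and the GINS complex, then turns the loaded helicase into an active one. Polymerase alpha-primase makes primers, the clamp loader RFC places the PCNA ring on them, and polymerases epsilon and delta extend the strands while RPA covers single-stranded DNA. Many of these genes are textbook targets of E2F transcription factors, which switch them on as cells enter S phase.

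All 47 members had a lower TPM after JIB-04 than after DMSO, although RFC1 moved to a log2 ratio of 0.02 when the libraries were rescaled to a median log2 ratio of 0 over well expressed genes. Among all described genes 60.3% had a log2 ratio below 0. The log2 ratio is that of JIB-04 over DMSO after 1 TPM was added to each value, which slightly understates the change of weak genes. At least 2-fold lower were 13 members, against 6.88% of all described genes, and none was at least 2-fold higher, against 5.99%. The count depended on scaling, with 6 members after the rescaling, against 4.70% of described genes lower and 7.67% higher, and 8 after quantile normalization, against 5.25% lower and 6.96% higher. A ratio at least 1.5-fold lower was found for 34 members and for 21.0% of described genes. The median log2 ratio was -0.89 over the members and -0.15 over all described genes, and the members ranged from -1.37 for GINS1 to -0.13 for RFC1. Summed over the 47 genes, the level was 3198 TPM in the control and 1843 TPM after JIB-04, or 57.6% of the DMSO value. In a bulk library fewer cells in S phase and less RNA per cell cannot be told apart.

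The DMSO library held an estimated 28187793 fragments and the JIB-04 library 23721989, taking a fragment as 202 aligned bases. The members rested on 525 to 8075 estimated fragments with DMSO and 207 to 3462 with JIB-04. Intervals given below are 95% exact conditional binomial intervals on these fragments and cover counting error only, not differences between cultures or library preparations. The members' intervals all lay below 0, and 46 of 47 lay below the median of all described genes. Set against the 2-fold line, 7 intervals lay wholly beyond it, 17 spanned it and 23 lay wholly on the near side. Intervals were not counted in this way over all described genes, so these counts describe the members and show no excess over other genes. Just past the line were POLA2 at a log2 ratio of -1.01 and PRIM1 at -1.02, and just short of it GINS4 at -0.99, MCM3 and RPA3 at -0.98 and TIPIN at -0.97. Of the hepatocyte markers, FGB stood at 771 and 961 TPM, TF at 381 and 422 TPM and AFP at 131 and 151 TPM, whereas ALB stood at 9.74 and 4.53 TPM and APOA1 at 1.34 and 0.99 TPM with DMSO and JIB-04. APOB, the main protein of hepatic lipoproteins, stood at 103 and 32.9 TPM, and the 9 hepatocyte markers summed to 1757 and 1861 TPM. Of 11 markers of other cell types, 9 were below 1 TPM in both libraries, the exceptions being CD68 at 97.0 and 137 TPM and COL1A1 at 16.0 and 10.6 TPM.

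**Figure D1:**
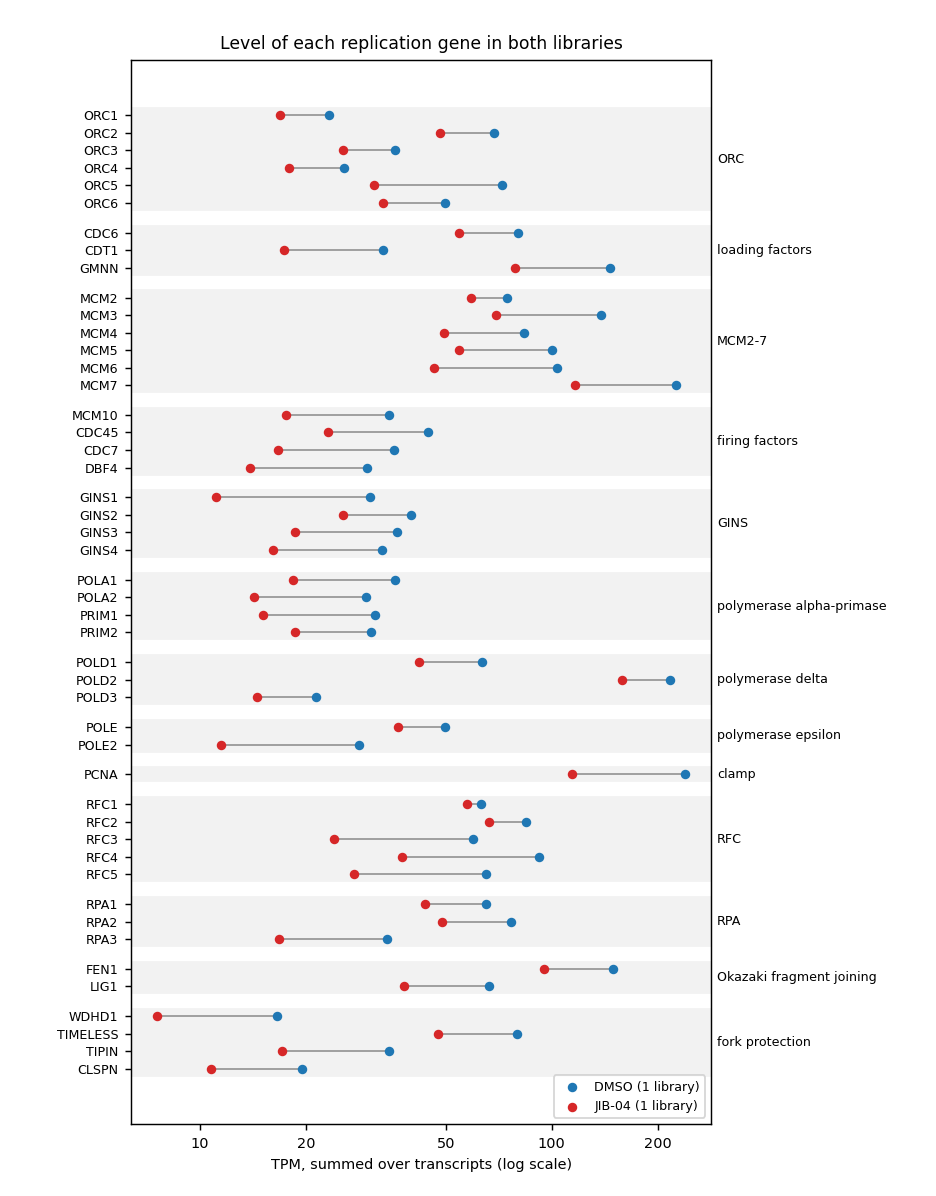
Level of each of the 47 members after DMSO and after JIB-04, in TPM on a log axis, grouped by complex, with 1 library per condition. The JIB-04 point lies to the left of the DMSO point in every row, with the smallest gap at RFC1 (62.8 and 57.3 TPM), whose log2 ratio turned to 0.02 under rescaling to the median of well expressed genes.

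The promoters of the members were compared with the E2F recognition sequence, because the replication genes are the classic class of E2F targets. RefSeq promoter sequences of GRCh38.p14, from 250 bases before to 50 after the gene start, were matched for 41 of the 47 members. The unmatched members were MCM4, MCM5, GINS4, POLD3, RPA2 and RPA3. The E2F words searched, on either strand, were TTTCCCGC, TTTCGCGC, TTTGGCGC and TTTGCCGC. At least 1 of them was found in 18 of 41 member promoters (43.9%), in 5.41% of the 11101 promoters of described genes and in 3.33% of all 27305 promoters of the same length. The windows shown next cover the word nearest the gene start among those ending at least 11 bases before it. Each complex with such a word has 1 window, from the member with the lowest ratio among those holding one. These need not be the lowest subunits, since GINS1 (log2 ratio -1.37) held its 1 word too near the gene start or past it. They are printed 5′ to 3′ on the strand of the gene with the E2F word in capitals.
CDT1 (helicase loading), chr16:88803743-88803772, plus strand: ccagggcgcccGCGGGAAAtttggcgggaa
MCM6 (helicase), chr2:135876511-135876540, minus strand: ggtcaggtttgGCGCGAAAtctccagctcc
GINS2 (helicase cofactor), chr16:85688967-85688996, minus strand: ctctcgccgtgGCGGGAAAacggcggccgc
POLA2 (primer synthesis), chr11:65261898-65261927, plus strand: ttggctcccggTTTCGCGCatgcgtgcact
PCNA (sliding clamp), chr20:5126663-5126692, minus strand: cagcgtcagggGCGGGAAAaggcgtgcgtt
RFC3 (clamp loader), chr13:33818083-33818112, plus strand: atttggagctcGCGGGAAAacttgtctctg
LIG1 (ligation of Okazaki fragments), chr19:48170440-48170469, minus strand: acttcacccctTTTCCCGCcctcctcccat

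The capitals begin 35 bases before the gene start in CDT1, 86 in MCM6, 31 in GINS2, 53 in POLA2, 59 in PCNA, 55 in RFC3 and 114 in LIG1. MCM6 held 4 such words in its promoter, overlapping ones counted apart, whereas MCM2, MCM3 and MCM7 held 2 each. A word match is a description of the sequence and shows no binding. Shortening the words by their first T, so that the longer words are contained in the shorter ones, gave 28 of 41 members (68.3%) against 20.6% of described genes. Within the members, a full word was found in 6 of the 13 that were at least 2-fold lower and in 12 of the other 28 with a promoter. A shortened word was found in 11 of the 13 and in 17 of the 28. These splits were not tested. For the full words, the median log2 ratio was -0.92 for the 18 members with a word and -0.74 for the 23 without one. Over the described genes it was -0.31 for the 601 with a word and -0.15 for the 10500 without. At least 2-fold lower were 7.16% of the described genes with a word and 6.46% of those without.

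Other promoter elements were spread differently over the members. CCAAT, the word bound by NF-Y, stood in 23 of 41 member promoters (56.1%) and in 37.2% of described ones. GGGCGG, the GC box bound by SP1, stood in 30 (73.2%) and in 69.7%. The cell-cycle homology region, searched as TTTGAA or TTCGAA, marks many genes of G2 and mitosis. It was found in 2 member promoters (4.88%), those of MCM6 and DBF4, against 10.9% of described ones. Of the described genes holding this region 11.6% were at least 2-fold lower, against 5.87% of those without it. The shares with and without CCAAT were 7.32% and 6.01%, and with and without GGGCGG 5.95% and 7.75%. These differences were not tested. Matches of different elements can overlap, as where GGGCGG runs into GCGGGAAA in the PCNA window shown above. Each share counts either strand.

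In summed TPM the ORC genes were lower by a similar factor except for ORC5. Over the 6 subunits the median log2 ratio was -0.49, and 1 of 6 was at least 2-fold lower, against 6.88% of described genes. ORC1, the ATPase subunit whose protein level cycles in human cells, was at 23.3 TPM under DMSO and 16.9 TPM under JIB-04 (log2 ratio -0.44, counting interval -0.60 to -0.29). ORC2 was at 68.6 and 48.3 TPM, ORC3 at 35.9 and 25.6 TPM and ORC4 at 25.7 and 17.97 TPM, so that ORC1 to ORC4 all lay between -0.50 and -0.44 on the log2 scale. ORC6, the smallest subunit, stood at 49.7 and 33.2 TPM, with a log2 ratio of -0.57 (interval -0.72 to -0.42). ORC5 (chromosome 7, 103766788 to 103848495 on hg19) went from 72.5 TPM with DMSO to 31.3 TPM with JIB-04 (log2 ratio -1.19, counting interval -1.32 to -1.05), outside the intervals of the other 5 subunits. The level of ORC5 relative to ORC2 was 1.06 with DMSO and 0.65 with JIB-04. All 14 exons of the main ORC5 transcript had a lower coverage, with ratios from 0.20 to 0.58. By the median ratio over exons ORC1 to ORC4 were less alike, at 0.73, 0.72, 0.69 and 0.86. The ORC4 value leans on its last exon, which is 5302 bases long and had a ratio of 0.605.

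The loading factors and their inhibitor were lower in step for CDT1 and GMNN and less so for CDC6. CDT1 stood at 33.1 TPM in the control and 17.4 TPM after JIB-04 (log2 ratio -0.89, counting interval -1.05 to -0.74). GMNN encodes geminin, which binds CDT1 and blocks renewed loading, and stood at 147 and 78.4 TPM (log2 ratio -0.90, counting interval -1.01 to -0.79). The level of CDT1 relative to GMNN was thus 0.23 with DMSO and 0.22 with JIB-04, a log2 change of -0.03 with a counting interval from -0.22 to 0.17. CDC6, the ATPase that joins ORC before helicase loading, was at 80.1 and 54.5 TPM (log2 ratio -0.55, counting interval -0.63 to -0.46).

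The 6 genes of the MCM2-7 helicase, a ring with 1 copy of each subunit, had a median log2 ratio of -0.90. At least 1.5-fold lower were 5 of 6, against 21.0% of described genes. MCM7 was the most abundant of them, at 225 TPM in the control and 117 TPM after JIB-04. MCM3 stood at 138 and 69.3 TPM, MCM5 at 100.1 and 54.5 TPM and MCM4 at 83.4 and 49.5 TPM, with log2 ratios of -0.98, -0.87 and -0.74. MCM6 (chromosome 2, 136597196 to 136634047 on hg19) was the lowest of the ring, with 103 TPM under DMSO and 46.2 TPM under JIB-04 (log2 ratio -1.15, counting interval -1.23 to -1.07). MCM2 moved least, from 74.8 to 58.9 TPM (log2 ratio -0.34, counting interval -0.42 to -0.26). The level of MCM2 relative to MCM6 was therefore 0.72 with DMSO and 1.28 with JIB-04, a log2 change of 0.82 (counting interval 0.71 to 0.93). The order of these genes changed accordingly, with MCM6 above MCM5, MCM4 and MCM2 under DMSO and below all the others under JIB-04.

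The 4 genes that activate the loaded helicase lay close to each other, with log2 ratios from -1.05 to -0.92. CDC7, the kinase that phosphorylates the MCM ring, was at 35.6 TPM in the control and 16.7 TPM after JIB-04 (log2 ratio -1.05, counting interval -1.19 to -0.91). Its activator DBF4 was at 29.9 and 13.9 TPM, also -1.05 (interval -1.19 to -0.92), and the level of CDC7 relative to DBF4 was 1.19 with DMSO and nearly the same with JIB-04 (log2 change 0.01, counting interval -0.19 to 0.22). CDC45, the helicase partner recruited at firing, stood at 44.6 and 23.1 TPM. MCM10, needed for the helicase to start unwinding, stood at 34.4 and 17.6 TPM. Their log2 ratios were -0.92 and -0.93.

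Unlike the firing factors, the 4 GINS subunits, which form a complex with 1 copy of each, spread apart. With DMSO their levels lay within a factor of 1.31, and with JIB-04 within a factor of 2.30. GINS1 (chromosome 20, 25388319 to 25429191 on hg19) had the lowest ratio of all members, with 30.4 TPM under DMSO and 11.1 TPM under JIB-04 (log2 ratio -1.37, counting interval -1.54 to -1.21). GINS2 was at 39.9 and 25.6 TPM (log2 ratio -0.62, counting interval -0.82 to -0.42). The intervals of GINS1 and GINS2 do not overlap. GINS3 stood at 36.3 and 18.7 TPM and GINS4 at 33.0 and 16.2 TPM, with log2 ratios of -0.92 and -0.99 between the other pair.

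**Figure D2:**
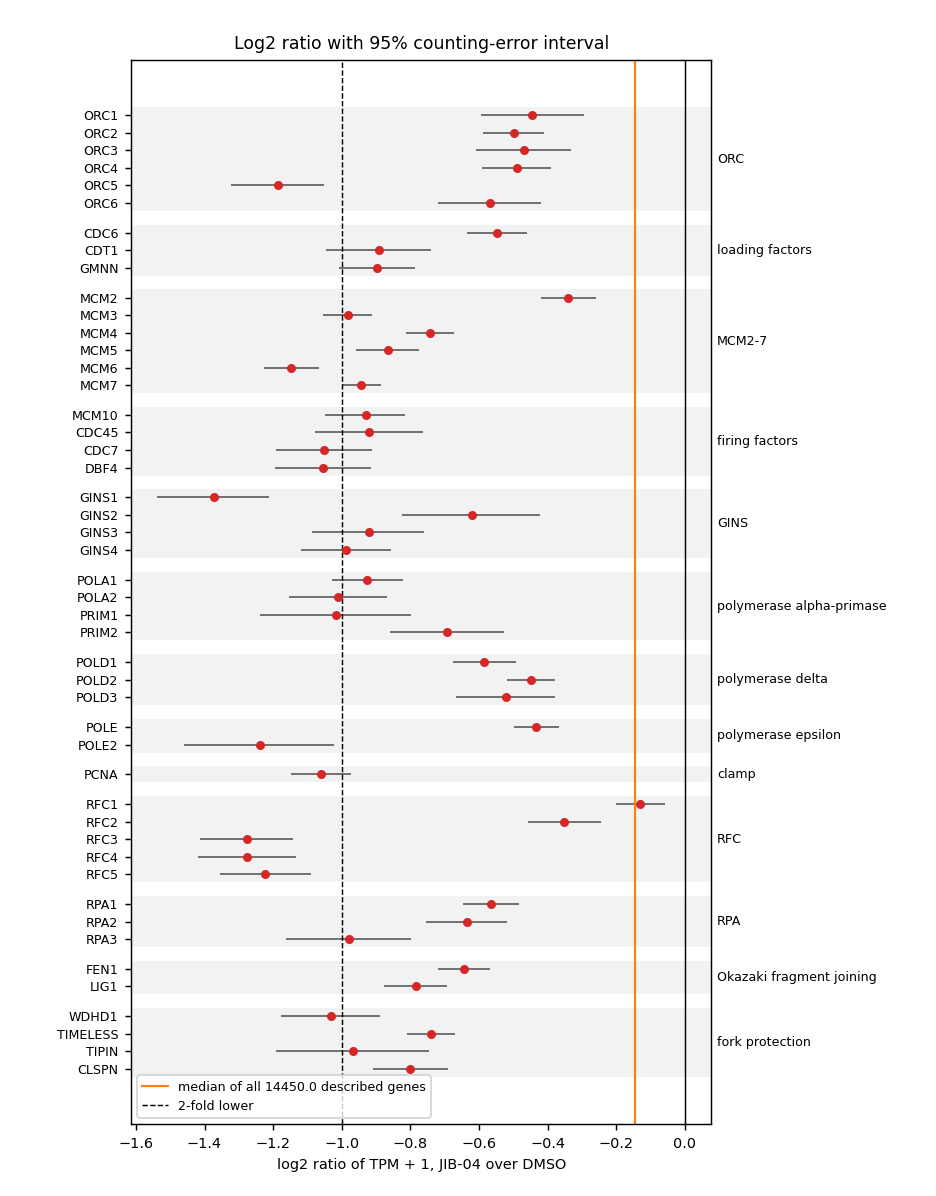
Log2 ratio of JIB-04 over DMSO for each member by complex, with bars for the 95% counting interval and lines at 0, at 2-fold lower and at the median of all described genes (-0.15). GINS1 (-1.37), RFC3 (-1.28) and RFC4 (-1.28) lie farthest to the left, and RFC1 (-0.13) alone lies at the median of all genes and turned to 0.02 under rescaling to the median of well expressed genes.

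The 9 polymerase genes differed by enzyme. All 4 genes of polymerase alpha-primase were at least 1.5-fold lower, whereas 1 of 3 delta genes and 1 of 2 epsilon genes were, against 21.0% of described genes. Sets of 2 or 3 genes are too small to be set apart from that share. POLA1, the catalytic subunit that extends the RNA primer, was at 35.8 TPM in the control and 18.4 TPM after JIB-04 (log2 ratio -0.93, counting interval -1.03 to -0.82). POLA2, its regulatory subunit, stood at 29.7 and 14.2 TPM and PRIM1, the catalytic primase, at 31.5 and 15.1 TPM. PRIM2, the large primase subunit, was less reduced, at 30.7 and 18.6 TPM with a log2 ratio of -0.69 (interval -0.86 to -0.53).

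The delta subunits, which make most of the lagging strand, had log2 ratios from -0.59 to -0.45. POLD1, the catalytic subunit, stood at 63.3 TPM in the control and 41.9 TPM after JIB-04, and POLD2, an accessory subunit and the most abundant polymerase gene, at 217 and 159 TPM. POLD3 was at 21.3 and 14.6 TPM (log2 ratio -0.52, counting interval -0.67 to -0.38). Its gene level hides a shift between annotated transcripts. The coding transcript NM_006591 was listed at 8.54 TPM in the control and 14.5 TPM after JIB-04, whereas the noncoding NR_046410 was listed at 12.8 and 0.05 TPM. Transcripts that share most exons are split by estimation, and 11 of the 12 exons of NM_006591 had a lower total coverage with JIB-04. The most abundant transcript also differed between the libraries in POLA1 and ORC4. In POLA1, NM_016937 was listed at 27.8 and 7.76 TPM and NM_001330360 at 8.07 and 10.6 TPM. In ORC4, NM_181741 was listed at 11.2 and 5.59 TPM and NM_001190879 at 1.48 and 5.81 TPM.

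For polymerase epsilon, which makes the leading strand, the catalytic and the accessory subunit differed. POLE stood at 49.8 TPM in the control and 36.6 TPM after JIB-04 (log2 ratio -0.43, counting interval -0.50 to -0.37). POLE2 stood at 28.4 and 11.5 TPM (log2 ratio -1.24, counting interval -1.46 to -1.02). The level of POLE relative to POLE2 was 1.75 with DMSO and 3.19 with JIB-04. POLE3 and POLE4, the histone-fold subunits, were not among the members and had log2 ratios of -0.75 and 0.25.

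PCNA, the sliding clamp that tethers polymerases and many other enzymes to DNA, was the most abundant member with DMSO, at 239 TPM, and was at 114 TPM with JIB-04. Its log2 ratio was -1.06 (interval -1.15 to -0.97). All 6 exons of its main transcript were lower, with coverage ratios from 0.41 to 0.53.

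The 5 RFC genes, which encode the ATPases that open and load the clamp, split into 2 sets. RFC3 was at 59.7 TPM under DMSO and 24.0 TPM under JIB-04 (log2 ratio -1.28, counting interval -1.41 to -1.14). RFC4 was at 92.2 and 37.5 TPM (-1.28, interval -1.42 to -1.13) and RFC5 at 65.2 and 27.4 TPM (-1.22, interval -1.36 to -1.09). These 3 small subunits were the lowest members after GINS1, with POLE2 among them. RFC2, the remaining small subunit, stood at 84.8 and 66.2 TPM (log2 ratio -0.35, counting interval -0.46 to -0.24). RFC1, the large subunit that is specific to the loader of PCNA at replication forks, stood at 62.8 and 57.3 TPM (log2 ratio -0.13, counting interval -0.20 to -0.06). Neither of the latter intervals reached those of RFC3, RFC4 and RFC5. The level of RFC1 relative to RFC4 was 0.68 with DMSO and 1.53 with JIB-04, a log2 change of 1.17 (counting interval 1.00 to 1.33). This ratio, computed without the added 1 TPM, does not change when a library is multiplied by a constant. RFC1 lies on chromosome 4 (39289069 to 39368001), RFC2 on 7 (73645832 to 73668788), RFC3 on 13 (34392206 to 34540695), RFC4 on 3 (186507682 to 186524484) and RFC5 on 12 (118454466 to 118470042), all on hg19.

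The split was also seen exon by exon. Coverage was summed over a gene's transcripts on each exon of its most abundant transcript and scaled to equal TPM. All 11 exons of RFC4 were at most 0.5 of the DMSO value, from 0.24 to 0.50. In RFC3 all 9 exons were lower, with a median ratio of 0.47, and in RFC5 all 11, with a median of 0.47. RFC2 had all 11 exons between 0.72 and 0.89. RFC1 had 18 of 25 exons below the DMSO value, with a median of 0.93 and a range from 0.61 to 1.27. Exons of a gene share the library and are not replicates. Across the members, 707 of 725 exons with coverage were lower, against 57.8% of such exons over all described genes. Every such exon was lower in 38 members, against 33.8% of described genes.

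**Figure D3:**
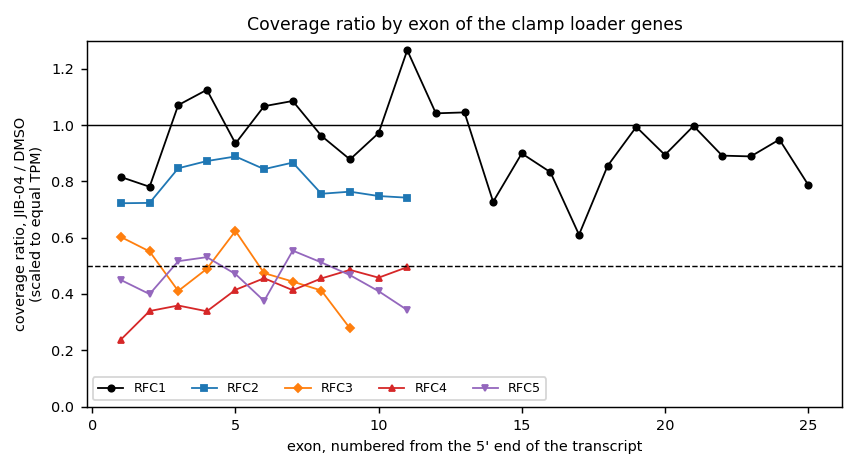
Coverage ratio of JIB-04 over DMSO, scaled to equal TPM, for each exon of the most abundant transcript of the 5 RFC genes, with exons in order along the transcript on the x axis. The exons of RFC4 lie between 0.24 and 0.50, those of RFC2 between 0.72 and 0.89, and those of RFC1 scatter from 0.61 to 1.27.

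RFC2 to RFC5 also serve alternative loaders in which another large subunit takes the place of RFC1. CHTF18, the large subunit of the loader tied to sister chromatid cohesion, was at 38.8 TPM in the control and 16.0 TPM after JIB-04 (log2 ratio -1.23, counting interval -1.37 to -1.08). Its partners DSCC1, at 34.0 and 12.8 TPM, and CHTF8, at 84.6 and 24.3 TPM, had log2 ratios of -1.34 and -1.76. ATAD5, which unloads PCNA, stood at -0.84 and RAD17, which loads the checkpoint clamp, at -0.55. The level of CHTF18 relative to RFC1 was 0.62 with DMSO and 0.28 with JIB-04. Thus RFC1 had the highest ratio among these 4 large subunits.

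The 3 RPA genes, whose products coat single-stranded DNA as a trimer, had a median log2 ratio of -0.64. RPA1, the main DNA-binding subunit, stood at 65.0 TPM in the control and 43.6 TPM after JIB-04. RPA2, the subunit phosphorylated under replication stress, stood at 76.6 and 48.9 TPM. RPA3, the smallest, was at 34.0 and 16.8 TPM (log2 ratio -0.98, counting interval -1.16 to -0.80), below the intervals of RPA1 (-0.65 to -0.48) and RPA2 (-0.75 to -0.52). Only 4 of the 8 exons of its annotated transcript had coverage, so its TPM may understate its level. Their coverage ratios were 0.60, 0.56, 0.54 and, for the last exon, 0.31. The separation therefore leans on the last exon, as the exon medians were 0.55 for RPA3, 0.66 for RPA1 and 0.62 for RPA2.

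FEN1 and LIG1 process the ends of Okazaki fragments. FEN1, the flap endonuclease, was at 149.7 TPM in the control and 95.4 TPM after JIB-04 (log2 ratio -0.64, counting interval -0.72 to -0.57). LIG1, the ligase that seals the nick, was at 66.4 and 38.1 TPM (log2 ratio -0.78, counting interval -0.88 to -0.69). Neither was 2-fold lower.

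The 4 fork protection genes were all at least 1.5-fold lower, against 21.0% of described genes. WDHD1, which links the helicase to polymerase alpha, was the least abundant member, at 16.5 TPM in the control and 7.57 TPM after JIB-04 (log2 ratio -1.03, counting interval -1.18 to -0.89). TIMELESS, at 79.7 and 47.4 TPM, and its partner TIPIN, at 34.5 and 17.2 TPM, keep helicase and polymerase coupled and had log2 ratios of -0.74 and -0.97. The TIPIN value leans on its last exon, with a coverage ratio of 0.10. The median over its 8 exons was 0.63, against 0.58 over the 29 exons of TIMELESS, so by exon medians TIPIN was not the lower of the pair. CLSPN, the mediator of the ATR checkpoint, stood at 19.5 and 10.8 TPM (log2 ratio -0.80, counting interval -0.91 to -0.69).

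The members' ratio showed little relation to their level or size. Across the 47 genes, which share the same 2 libraries and are not replicates, Pearson's r of the log2 ratio was 0.07 with the log2 level in the DMSO library, 0.23 with the length of the longest transcript and 0.00 with the span of the gene. The levels themselves kept their order, with r = 0.96 and Spearman's rho = 0.94 between the libraries. No member shared exonic bases with another gene on the same strand. The members lie on 19 chromosomes.

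Several members face another gene across a shared promoter region, and these neighbours were compared with them. For 11 members a described gene on the opposite strand started within 1000 bases, giving 12 neighbours with a median log2 ratio of -0.39. None of the 12 was at least 2-fold lower, against 6.88% of described genes, and 1 was at least 2-fold higher, against 5.99%. PCNA, at -1.06, faces CDS2, a lipid synthesis gene, at -0.14 (22.2 and 20.04 TPM). CDC45, at -0.92, faces UFD1, a cofactor of protein extraction, at 0.19, and ORC6, at -0.57, faces VPS35, a subunit of the retromer, at 0.12. FEN1, at -0.64, faces TMEM258 at -0.05 and the microRNA gene MIR611. MIR611 was the neighbour at least 2-fold higher, but weak at 1.16 and 3.51 TPM. It starts 76 bases from FEN1 on the same strand as TMEM258, which starts 24 bases away, so the 2 are not separate neighbours. In 3 further pairs the neighbour was lower too but by less, namely SOCS4 (-0.64) beside WDHD1 (-1.03), ZSWIM9 (-0.41) beside LIG1 (-0.78) and SMYD4 (-0.36) beside RPA1 (-0.57). The ratios were nearly equal in the remaining 4 pairs. MCM4 and PRKDC, a DNA repair kinase that starts 20 bases away, were at -0.74 and -0.69, ORC1 and PRPF38A at -0.44 and -0.43, ORC3 and RARS2 at -0.47 and -0.46, and POLE and PXMP2 at -0.43 and -0.46. The library protocol and the strand setting of the quantification are designed to separate such opposite genes, but how completely they did so was not measured.

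Genes with related roles that are not members were taken from 5 lists, of other initiation genes, other fork and polymerase genes, genes of clamp-coupled protein turnover, chromatin assembly at the fork, and the replication checkpoint. Of 56 listed genes 54 were described, with a median log2 ratio of -0.74. At least 2-fold lower were 12, against 6.88% of all described genes, and at least 2-fold higher was 1, against 5.99%. Among 11 described initiation genes 1 was 2-fold lower, a count too small to be set apart from the 6.88%. It was DBF4B, the second activator of CDC7, at 18.5 and 8.42 TPM. TICRR, which encodes treslin, a cofactor for CDC45 recruitment, stood at 14.3 and 17.7 TPM (log2 ratio 0.28, counting interval 0.17 to 0.40). The fork and polymerase list had 6 of 15 genes 2-fold lower, against 6.88% of described genes. Among them was TOP2A, the mitotic and replicative topoisomerase, at 170.2 TPM in the control and 51.3 TPM after JIB-04 (log2 ratio -1.71). PCLAF, a PCNA-binding protein, stood at -1.24 and DNA2, a nuclease-helicase of fragment processing, at -1.09.

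The turnover list of 7 genes had a median of -0.14 and included the gene that was higher. Through some of these genes PCNA on DNA directs the destruction of CDT1 and other proteins. CDKN1A encodes p21, an inhibitor of cyclin-dependent kinases that also binds PCNA, and stood at 13.1 TPM under DMSO and 128 TPM under JIB-04 (log2 ratio 3.19, counting interval 3.03 to 3.35). DTL, the adaptor that recognises CDT1 on PCNA, was at 33.3 and 17.7 TPM, while its ligase scaffold CUL4A was at 129 and 168 TPM. In chromatin assembly 2 of 11 genes were 2-fold lower, against 6.88% of described genes. They were the histone chaperones ASF1B (72.0 and 23.8 TPM, log2 ratio -1.56) and ASF1A (27.4 and 10.2 TPM, log2 ratio -1.34). CHAF1A, a subunit of the chaperone CAF-1 that PCNA recruits, stood at -0.30. In the checkpoint list 3 of 10 genes were 2-fold lower, against 6.88% of described genes. These were RAD9A (-1.54), ETAA1 (-1.48) and the kinase ATR (-1.21). WEE1, the kinase that restrains entry into mitosis, was at 0.35.

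Of 4 other cell-cycle, repair and nucleotide lists, the kinetochore and recombination lists had medians near that of the members, and the deoxynucleotide and translesion lists had higher ones. The median log2 ratio was -0.87 over 27 kinetochore and spindle checkpoint genes, with 10 at least 2-fold lower, and -0.81 over 24 genes of homologous recombination and the Fanconi anemia pathway, with 6. It was -0.60 over 16 genes of deoxynucleotide synthesis and -0.41 over 12 translesion polymerase genes, with 2 and 0 at least 2-fold lower. Among all described genes 6.88% were at least 2-fold lower. With 1 library per condition the differences between these medians and that of the members (-0.89, 13 of 47) were not tested.

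**Figure D4:**
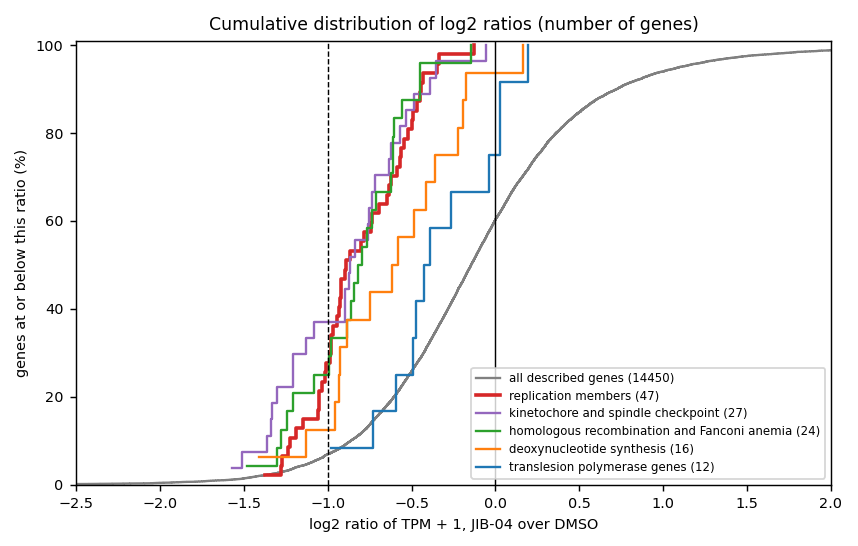
Cumulative share of genes, in percent, at or below each log2 ratio of JIB-04 over DMSO, for the 47 members, all 14450 described genes, and the lists of kinetochore, recombination, deoxynucleotide and translesion genes. The members' curve lies to the left of that of all genes, with medians of -0.89 and -0.15, and runs beside those of the kinetochore (-0.87) and recombination (-0.81) lists.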

How the data were processed

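RNA of 1 DMSO and 1 JIB-04 culture was sequenced. The tools in the submitters' processing notes are StringTie 1.3.3b, HISAT2 2.0.5 with Bowtie2 2.2.6, FastQC 0.11.5 and Trimmomatic 0.32, on hg19. Per the file headers, StringTie quantified annotated transcripts with a strand setting. The authors deposited coverage, FPKM and TPM for each transcript and coverage for each exon, with no read counts.

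TPM was summed per gene. Symbols came from a RefSeq table of GRCh38.p14, which named 27559 of 27685 identifiers. Members and lists were chosen with earlier results of these data known. All members may be named, and of the other lists the genes past 2-fold and those with the 2 highest and 2 lowest ratios at a mean TPM of at least 5, and a few genes beyond this rule were named for their role after their values were seen. The fragments of a gene were taken as its aligned bases divided by 202 (2 mates of 101), the commonest value on weakly covered transcripts. The JIB-04 library was the shallower, which widens the intervals of the ratio. Their median width over the members was 0.24 on the log2 scale. Other pseudocounts, filters, scalings and units were tried. The counting intervals and the 2-fold calls were tested on simulated fragment counts that held counting error only. The other steps were not simulated. Python 3.11.15, numpy 2.4.6, pandas 2.3.3, SciPy 1.17.1 and matplotlib 3.10.9 were used.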

Additional observations from a re-analysis of the deposited data

How the results depend on the processing

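Of 102 recomputed counts and medians 83 stayed within 1.5 times (counts) or within the counting error of a typical member (medians), 19 moved further and none changed direction. With a pseudocount of 5 the members at least 2-fold lower numbered 8, against 2.83% of described genes, and the GINS median was -0.82. A 3-fold threshold left 0 members, against 1.07% of described genes. Setting the median of genes with at least 10 TPM in both libraries to 0, which removes a shift of -0.15, left 6 members at least 2-fold lower, against 4.70% of described genes. The medians were then -0.74 for the members, -0.35 for ORC, -0.75 for MCM2-7, -0.81 for GINS, -0.55 for the polymerases, -1.07 for RFC and -0.49 for RPA. Quantile normalization left 8 members, against 5.25% of described genes, with medians of -0.76 for the members, -0.35 for ORC, -0.80 for GINS, -0.53 for the polymerases and -1.08 for RFC. Among all genes past 2-fold, 46.5% were higher in the values as deposited, 62.0% after the rescaling and 57.0% after quantile normalization. The most abundant transcript alone gave -1.07 for MCM2-7 and -0.80 for GINS. Of 470 values of single members, 85 moved and 2 rose above 0, RFC1 at 0.02 after the rescaling and POLD3 at 0.70 for its most abundant transcript. Shares of estimated fragments in place of TPM, an alternative chosen after seeing the data, gave 15 members at least 2-fold lower, against 6.52% of described genes. No cause was tested for values that moved beyond what rescaling or a larger pseudocount does by construction.

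No paired analysis was possible because each condition had 1 library, and no replicate could be left out. Depth limits the sparsest members most, with intervals up to 0.45 wide on the log2 scale.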
